A study of Mus musculus with 2 samples.

Results

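The cells described here are 733 endothelial cells from a tumour library labelled as a knockout of Nf2. They were selected on detected transcripts, each holding those of at least 2 of 4 genes: Cldn4, F2rl1, Chga and Gstt1. They were chosen among the 2820 knockout cells with at least 2000 detected genes, of 3368 cells in that library and 6194 cells in the series. They made up 26.0% of the 2820 kept cells (95% interval 24.4 to 27.7). A further 655 kept knockout cells held transcripts of 1 of the 4 genes, and 1432 held none and served for comparison. The 4 genes were picked with results of these data in view, so their levels in the chosen cells describe the choice.

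The series set endothelial cells from tumours of mice titled NF2 KO beside those of mice titled control, to see how the cells differ where Nf2 is lost. Nf2 encodes merlin, a membrane-associated protein upstream of the Hippo kinases, which restrain the transcriptional coactivators YAP and TAZ. Both groups were adult mice of the strain C57BL/6, and cells of their tumours had been sorted on CD31, an endothelial surface protein, and captured in droplets by a 10x Genomics 3′ assay. Each group is a single library. The tumour type, the number of mice, the driver of the knockout and the exons removed are not given in the sources used here. Nf2 itself stood at 20.4 CPM (UMIs, the molecules counted, scaled to a total of 1000000) in the kept knockout cells and 21.5 CPM in the kept control cells. Tags from the 3′ end can lie outside the removed exons, so Nf2 tells nothing of whether the labels hold.

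With 1 library per group no test was made. Each interval in brackets is a 95% interval for counting error only: exact Poisson for a level, exact conditional for a ratio and exact Clopper-Pearson for a share. None of them covers the spread between mice. Barcodes in the knockout library carried run number 1 or 2, whose meaning the labels do not state, and 1 barcode occurred in both runs and 1 in both libraries. The runs are parts of 1 library and not replicates, and a direction was accepted only where both showed it.

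Cldn4 encodes a claudin, one of the proteins that seal tight junctions, and is best known from epithelia; the main claudin of endothelium is Cldn5. F2rl1 encodes protease-activated receptor 2, a receptor switched on when a serine protease cuts its outer end. Chga encodes chromogranin A, a protein of the secretory granules of neuroendocrine cells, and Gstt1 encodes a theta-class glutathione transferase, an enzyme that couples glutathione to reactive compounds. On GRCm38 the genes lie apart: Cldn4 (ENSMUSG00000047501.3) at chr5:134945119-134946934, F2rl1 (ENSMUSG00000021678.9) at chr13:95511732-95525227, Chga (ENSMUSG00000021194.6) at chr12:102554969-102565028 and Gstt1 (ENSMUSG00000001663.10) at chr10:75783813-75798584. Chga lies on the plus strand and the other 3 on the minus strand.

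Promoters are shown for 3 genes that were high in the chosen cells, 1 that defined them and 2 that did not, because each holds a repeated short motif. They are from RefSeq (GRCm38.p6), run from 250 bases before to 50 bases after the annotated start and are written 5′ to 3′ on the strand of the gene. Capitals mark matches, on either strand, to TGANTCA (AP-1 factors) in Cldn4 and F2rl2, and to GGAATG (TEAD factors, the DNA-binding partners of YAP and TAZ) in Ankrd1. The N in the AP-1 motif stands for any base. It is C in both matches of Cldn4, but T in the first match of F2rl2 and G in the second. The windows are chr5:134946885-134947184 on the minus strand for Cldn4, chr13:95696670-95696969 on the plus strand for F2rl2 and chr19:36119795-36120094 on the minus strand for Ankrd1.
Cldn4: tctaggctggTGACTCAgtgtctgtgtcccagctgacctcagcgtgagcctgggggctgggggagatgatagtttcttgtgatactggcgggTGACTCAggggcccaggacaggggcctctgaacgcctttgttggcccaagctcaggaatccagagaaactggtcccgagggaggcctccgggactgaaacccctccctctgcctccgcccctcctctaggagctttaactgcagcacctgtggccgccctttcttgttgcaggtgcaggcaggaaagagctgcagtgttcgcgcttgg
F2rl2: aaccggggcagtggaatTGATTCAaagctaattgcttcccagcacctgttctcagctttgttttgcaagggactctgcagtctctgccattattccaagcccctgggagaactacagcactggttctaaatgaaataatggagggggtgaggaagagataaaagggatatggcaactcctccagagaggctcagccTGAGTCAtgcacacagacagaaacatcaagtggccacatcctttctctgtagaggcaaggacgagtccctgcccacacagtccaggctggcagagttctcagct
Ankrd1: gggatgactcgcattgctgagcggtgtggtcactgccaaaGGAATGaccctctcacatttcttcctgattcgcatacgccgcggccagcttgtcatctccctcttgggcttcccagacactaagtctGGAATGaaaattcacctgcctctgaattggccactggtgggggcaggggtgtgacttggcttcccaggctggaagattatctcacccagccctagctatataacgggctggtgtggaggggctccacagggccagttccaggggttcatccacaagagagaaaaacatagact
At least 2 matches to TGANTCA occurred in 0.460% of the 32851 promoters in that table and at least 2 to GGAATG in 1.36%, while 7.81% and 14.7% held at least 1. The promoter of Chga held neither motif nor ACGTG (the core of the hypoxia response element, in 19.6% of promoters), and that of Gstt1 held ACGTG. No F2rl1 promoter is printed. Among the 12 genes named further on as highest, 9 had an entry, and 1 of these held GGAATG, 2 held TGANTCA and 1 held ACGTG. Among the 12 lowest genes, 10 had an entry, and the counts were 1, 2 and 3. A match is a run of letters and not a binding site.

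The cells were found at nearly the same rate in both runs of the knockout library. Run 1 held 290 of them among 1148 kept cells (25.3%, 22.8 to 27.9) and run 2 held 443 among 1672 (26.5%, 24.4 to 28.7). The same rule in the control library was met by 72 of 1404 kept cells (5.13%, 4.03 to 6.41), by 24 of 748 in run 1 (3.21%, 2.07 to 4.74) and by 48 of 656 in run 2 (7.32%, 5.44 to 9.58). Deeper cells meet such a rule more readily: the median total was 16314.5 UMIs in knockout cells with none of the 4 genes, 17291 with 1, 20150 with 2, 22368 with 3 and 27344 with 4. When every cell was thinned to 5000 UMIs, and 15 knockout and 6 control cells below that depth were left out, 14.2% of knockout cells (12.9 to 15.5) and 1.36% of control cells (0.820 to 2.11) met the rule. Both thinned knockout runs, at 14.6% and 13.9%, lay above both thinned control runs, at 0.808% and 1.98%. Because the 4 genes were picked with results of these data in view, this difference between the libraries describes the choice and is not a separate finding.

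F2rl1 and Chga were the commonest pair of markers. Of the 733 cells, 417 held 2 markers, 243 held 3 and 73 held all 4. F2rl1 was found in 89.8% of them, Chga in 82.4%, Cldn4 in 47.5% and Gstt1 in 33.4%. The pair of F2rl1 and Chga alone accounted for 252 cells (34.4%), and Cldn4 with F2rl1 and Chga for 151 (20.6%). In the kept knockout cells as a whole F2rl1 was detected in 32.0% and stood at 53.2 CPM (51.4 to 55.2), with 51.3 CPM in run 1 and 54.3 CPM in run 2. Cldn4 was detected in 13.3% and stood at 30.4 CPM (29.0 to 31.9), with 33.7 and 28.6 CPM in the runs. Gstt1 was detected in 11.5% and stood at 19.7 CPM, and Chga was detected in 32.3% and stood at 446 CPM. In kept control cells the same genes were detected in 3.70%, 3.42%, 2.28% and 28.3% of cells, at 2.77, 4.97, 2.08 and 278 CPM. Chga was thus detected in a similar share of cells in both libraries, whereas the other 3 markers were rarer in control cells.

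In the kept knockout cells the 4 markers tended to occur together. F2rl1 was detected in 83.5% of the 376 kept knockout cells with Cldn4 and in 24.0% of the 2444 without it, the highest share of any pair. Gstt1 was detected in 19.8% of the 910 cells with Chga and in 7.49% of the 1910 without it. These shares are not adjusted for depth. With each marker left out of the rule in turn, cells with at least 2 of the other 3 were set against depth-matched cells with none of the other 3. The left-out Cldn4 was then 32.4-fold higher (23.4 to 45.9), at 81.7 against 2.53 CPM. The left-out F2rl1 was 10.6-fold higher (8.88 to 12.7), Chga 10.7-fold (10.0 to 11.3) and Gstt1 11.7-fold (9.04 to 15.3). Every one of these ratios was above 9 in each run. These values are descriptions, since the 4 genes were chosen together.

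Every one of the 733 cells held a UMI of Pecam1, the gene of CD31, and 99.9% held one of Cdh5, the cadherin of endothelial junctions. The median cell held 18 of 20 general endothelial markers. To set the cells beside cells of equal depth, each was paired within its run with the cell lacking all 4 markers that had the nearest UMI total. This gave 716 pairs, 276 in run 1 and 440 in run 2, with median totals of 21039.5 and 21062 UMIs, and left 17 chosen cells without a partner. The pairs are the basis of the ratios that follow, except where other cells or partners are named. In the matched cells, Pecam1 stood at 1023 CPM in the chosen cells and 1053 CPM in their partners, and Cdh5 at 845 and 915 CPM.

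Markers of the cell types that Cldn4 or Chga might call to mind were close to 0. The epithelial list summed to 5.23 CPM in the chosen cells and 6.74 CPM in their partners, with Krt7 at 0 in both, and the neuroendocrine list apart from Chga to 0.831 and 1.14 CPM, with Scg2, Snap25, Insm1 and Pcsk1 at 0 in both. Lymphocyte markers summed to 0.653 and 1.87 CPM, pericyte markers to 46.5 and 56.6 CPM and fibroblast markers to 12.3 and 10.7 CPM. Macrophage or monocyte markers were lower in the chosen cells, at 55.3 against 100.5 CPM, as they were in each run (61.9 against 105 and 52.03 against 98.3 CPM). Cells with at least 3 detected markers of another cell type made up 9.64% of the chosen cells and 12.01% of their partners. Erythroid transcripts were at 7.90 and 51.3 CPM, with the difference in opposite directions in the runs. The median mitochondrial share was 3.01% and 3.47%, and the median doublet score 0.0680 in both. The sets differed in cycling cells: transcripts of at least 5 genes of the G2 and M phases were found in 13.4% of the chosen cells and 33.8% of their partners.

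**Figure D1:**
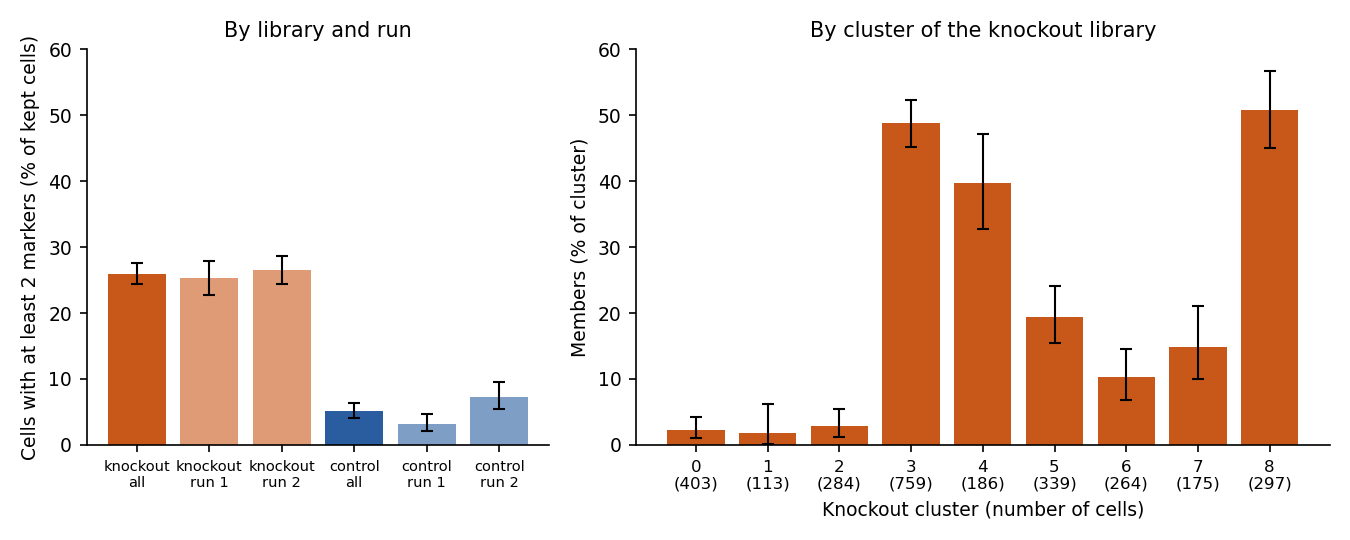
Share of kept cells that met the rule, in % with 95% Clopper-Pearson intervals for counting error, by library and run (left) and by cluster of the knockout library (right, with the number of cells of each cluster). Both knockout runs stand near 26.0%, above both control runs, and the clusters of the knockout library run from 1.77% to 50.8%.

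Genes that were high in the chosen cells are given first. Of 5782 genes with a mean level of at least 20 CPM, the 4 markers left out, 367 were at least 1.5-fold higher in the chosen cells, with an interval above 1 and both runs in the same direction. That is 6.35% of the genes compared, and 455 genes, 7.87%, were lower by the same measure. The median log2 ratio of all compared genes was -0.06.

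Ankrd1, a nuclear ankyrin-repeat protein whose gene is a textbook target of YAP and TAZ (ENSMUSG00000024803.9, chr19:36111961-36120099), led the higher genes. It stood at 236 CPM in the chosen cells of run 1 and 192 CPM in those of run 2, against 18.5 and 11.9 CPM in their partners, so both runs were far apart from their partners. The ratio over both runs was 14.6 (12.8 to 16.8). Efemp1, which encodes the matrix protein fibulin-3 (ENSMUSG00000020467.15, chr11:28853204-28926743), stood at 124 and 77.7 CPM against 6.94 and 7.18 CPM and was 13.1-fold higher (10.9 to 15.9). Rarres1, a gene induced by retinoids (chr3:67478972-67515523), was 11.9-fold higher (9.13 to 15.9), and Pmaip1, whose product NOXA promotes apoptosis, 11.3-fold (8.60 to 14.996). Both of these were scarce in the partners, at 3.49 CPM each.

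Matrix and secreted factors made up much of the rest. Fn1, the gene of fibronectin (ENSMUSG00000026193.15, chr1:71585520-71653200), reached 3959 CPM in run 1 and 3646 CPM in run 2, against 507 and 355 CPM in the partners, a ratio of 9.26 (9.03 to 9.497). Ntn4, a laminin-related netrin of basement membranes, was 9.76-fold higher (7.99 to 12.02). Bmp2, a ligand of the bone morphogenetic protein family, stood at 341 CPM in both runs against 57.6 and 33.8 CPM, 8.19-fold higher (7.57 to 8.88). Pgf, the placental growth factor that binds the receptor encoded by Flt1, stood at 1150 and 1224 CPM against 244 and 189 CPM, 5.79-fold higher (5.59 to 6.01). Gal, the gene of the neuropeptide galanin, was 6.76-fold higher (5.83 to 7.88), but unevenly: 3.88-fold in run 1 and 11.8-fold in run 2. Egln3, an oxygen-sensing prolyl hydroxylase gene that hypoxia induces, was 7.43-fold higher (6.62 to 8.36). Sdc4, a heparan sulphate proteoglycan of the cell surface, was 6.15-fold higher (5.51 to 6.89). F2rl2 was 7.37-fold higher (6.36 to 8.57) and is described with the receptors. Fn1 overlaps Apol7d, F2rl2 overlaps Iqgap2 and Ntn4 overlaps Gm15915, each on the other strand. Whether counting used the strand is not given in the sources used here.

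The lower genes were led by genes of post-capillary and capillary endothelium. Ackr1, the atypical chemokine receptor that marks venules (ENSMUSG00000037872.5, chr1:173331886-173333750), stood at 0.903 CPM in the chosen cells of run 1 and 1.68 CPM in those of run 2, against 87.0 and 64.6 CPM in their partners. It was 50.5-fold lower (33.8 to 79.1). Slco2a1, the prostaglandin transporter (ENSMUSG00000032548.14, chr9:102988712-103096002), stood at 1.81 and 2.48 CPM against 67.8 and 72.7 CPM and was 31.5-fold lower (22.8 to 44.7). Few UMIs of either gene were left in the chosen cells of either run. Selp, the P-selectin gene through which leukocytes roll on venules, was 11.995-fold lower (10.8 to 13.4), and Il6, an inflammatory cytokine, 11.2-fold (8.70 to 14.6). Ackr1 overlaps Cadm3 on the same strand, so reads of these genes may have been split. Selp overlaps Gm16587 and Gm16548, both on the other strand.

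Receptors and transporters followed. Ednrb, the endothelin B receptor, stood at 7.40 and 13.5 CPM against 149 and 154 CPM, 13.2-fold lower (11.4 to 15.4). Aplnr, the receptor of apelin, was 12.3-fold lower (9.82 to 15.7). Aqp1, the water channel of endothelium, stood at 98.2 and 113 CPM against 1132 and 1156 CPM, 10.6-fold lower (10.1 to 11.1). Rbp7, a retinol-binding protein of capillaries, was 11.04-fold lower, and Fbln2, a matrix fibulin, 10.2-fold lower. Car4, the carbonic anhydrase of capillary surfaces, was 8.32-fold lower (7.45 to 9.32), Ramp3, a partner of the adrenomedullin receptor, 8.13-fold and Cd300lg, a mucin-like glycoprotein of capillaries, 6.64-fold. Being lower in both runs was a condition for naming these 12 genes. The degree differed between runs: Cd300lg was 15.8-fold lower in run 1 and 5.596-fold in run 2.

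**Figure D2:**
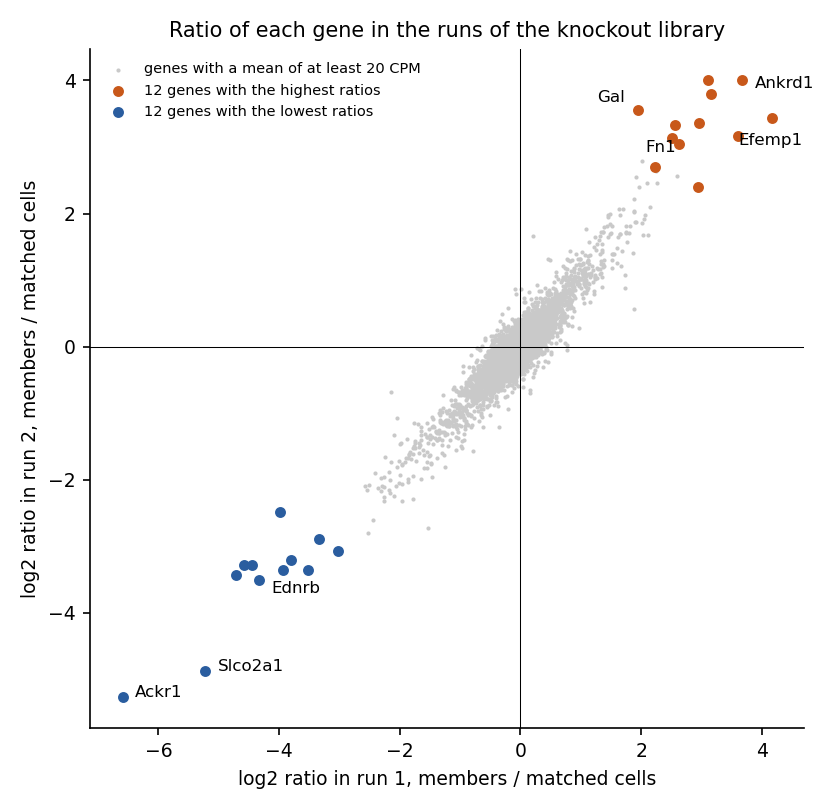
Log2 ratio of each compared gene, chosen cells over depth-matched cells without markers, in run 1 (x axis) and run 2 (y axis) of the knockout library. The 12 genes with the highest and the 12 with the lowest ratios were required to differ in the same direction in both runs. They run from Ackr1 at 50.5-fold lower to Ankrd1 at 14.6-fold higher over both runs.

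Levels summed over cells were graded by the number of markers held, and cells with 1 marker, which the rule left out, lay in between. For each of the 24 genes the level with 1 marker was between those with 0 and with 2. Just outside and just inside the rule, with 1 and with 2 markers, Fn1 stood at 1345 and 2619 CPM, Ankrd1 at 76.0 and 149 CPM, Aqp1 at 530.0 and 174 CPM and Ackr1 at 43.8 and 1.90 CPM. With none of the markers these genes stood at 413, 13.7, 1189 and 87.4 CPM, and with all 4 at 5650, 222, 47.01 and 0.448 CPM. From 0 to 4 markers, the level of 6 of the 12 higher genes increased at every step and that of 8 of the 12 lower genes decreased at every step. Ankrd1 was highest at 3 markers over both runs and in run 2, and at 4 markers in run 1. Each level is a sum over a class of cells, so it does not show whether single cells are graded. Depth increased with the number of markers too, as given above. The mix of clusters, described below, differed as well. Clusters 3 and 8 held 50.5% and 20.6% of the chosen cells, and 10.8% and 3.98% of the cells without markers. The parts of depth and of this mix in the grading were not tested.

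**Figure D3:**
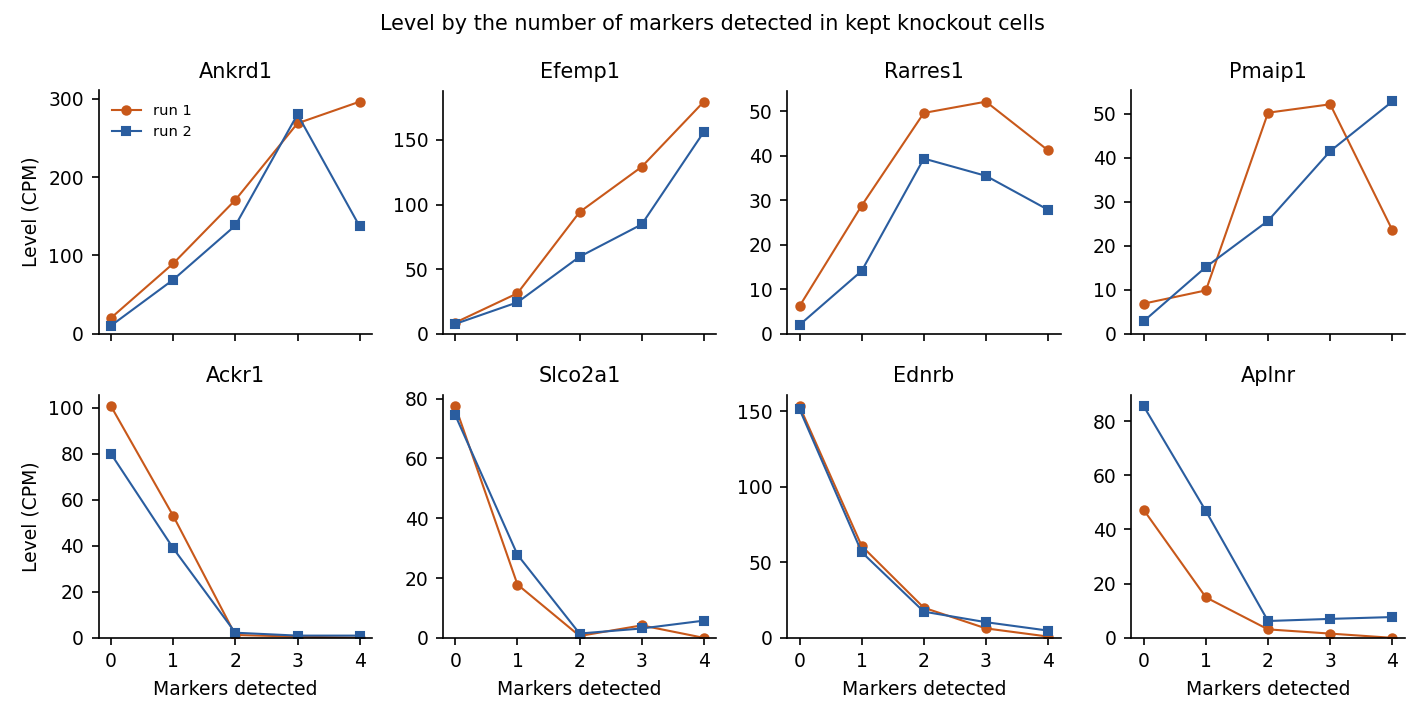
Level in CPM (y axis, from 0) against the number of the 4 markers detected in a kept knockout cell (x axis), for the 4 genes with the highest ratios (top) and the 4 with the lowest (bottom), in run 1 and run 2. Cells with 1 marker lie between those with 0 and 2 in both runs, and from 2 markers on the highest value of the 4 lower genes is 19.95 CPM (Ednrb, run 1).

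Gene lists describe the cells by function, and each count is to be read against 6.35% of all compared genes higher and 7.87% lower. Tip cells are the endothelial cells that lead a sprout. Of 22 tip cell genes compared, 12 were higher and 2 lower, with a median log2 ratio of 0.79. Cxcr4, a chemokine receptor, was 3.75-fold higher (3.49 to 4.03), Esm1, the gene of endocan, 2.62-fold (2.56 to 2.67) and Apln, the gene of apelin, 2.22-fold (2.18 to 2.26). Igfbp3 and Kcne3 were the lower ones, and Igfbp3 was 1.65-fold lower (1.63 to 1.68). Of 23 genes of hypoxia and glycolysis, 13 were higher and none lower, with a median of 0.71. Ankrd37 was 4.32-fold higher (4.10 to 4.55), Bnip3, a mitophagy receptor, 3.98-fold (3.68 to 4.30) and Adm, the gene of adrenomedullin, 2.35-fold (2.28 to 2.41).

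Venous and capillary genes were mostly lower. Of 12 venous genes compared, 9 were lower and 1 higher, with a median log2 ratio of -1.22. Lrg1, a glycoprotein of post-capillary venules, was 4.45-fold lower (4.27 to 4.65), and Ccl2, a monocyte chemokine, was the higher one at 1.94-fold. Of 10 capillary genes, 6 were lower and none higher, with a median of -1.17: Ednrb, Car4, Ramp3 and Cd300lg as above, with Gpihbp1 and Cd36. Of 6 arterial genes compared, 3 were higher and 1 lower, with a median of 0.55 (-0.36 when genes down to 5 CPM were compared). Cxcl12, a chemokine, was 3.04-fold higher (2.94 to 3.16), Edn1, the gene of endothelin 1, 2.01-fold (1.95 to 2.07) and Unc5b, a netrin receptor, 1.95-fold (1.66 to 2.30), while Clu was 1.59-fold lower. Of the 20 general endothelial markers, Erg, a transcription factor, was higher at 1.70-fold, and 6 were lower: Flt1, Eng, Kdr, Fli1, Plvap and Tek. Their sum was 7736 CPM against 10561 CPM.

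Genes of the cell cycle were mostly lower. All 18 compared genes of the G2 and M phases were lower, with a median log2 ratio of -1.33, among them Birc5, Nusap1, Top2a and Ube2c. Top2a, the topoisomerase of dividing cells, stood at 40.3 and 59.6 CPM in the runs against 148 and 156 CPM, 2.88-fold lower (2.66 to 3.11). Of 17 genes of the G1 to S step and replication, 13 were lower and 1 higher, with a median of -1.08. Mcm5, a subunit of the replicative helicase, was 3.96-fold lower (3.37 to 4.68), Ccnd1, the gene of cyclin D1, 1.70-fold lower (1.65 to 1.75), and Cdkn2b, an inhibitor of cyclin-dependent kinases, 2.30-fold higher (2.02 to 2.62). The sets also differed in the share of cells with transcripts of at least 5 G2 and M genes, 13.4% against 33.8%. With such cells left out of both sets, 299 of the 367 higher and 305 of the 455 lower genes were still counted, and Nusap1 and Ube2c changed sides, to log2 ratios of 1.20 and 0.67. Among all 1432 knockout cells without markers, 26.0% held transcripts of at least 5 G2 and M genes, a smaller share than in the partners. Against all of these, with no depth matching, the G2 and M median was -0.90 and the G1 to S median -0.80. The log2 ratio of Top2a was then -1.01 in place of -1.52, and that of Ube2c -0.65 in place of -1.29.

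Targets of YAP and TAZ were mixed. Of 19 compared, 6 were higher and 3 lower, with a median log2 ratio of 0.30. Ankrd1, Tgfb2, Gadd45a, Thbs1, Ajuba and Cyr61 were higher, and Birc5, Nt5e and Igfbp3 were lower. Tgfb2, a growth factor, stood at 162 and 140 CPM against 38.01 and 25.5 CPM, 4.98-fold higher (4.52 to 5.49). Gadd45a, a growth-arrest gene, was 3.32-fold higher (2.96 to 3.73), while Cyr61, a matricellular protein often used to report YAP activity, was 1.59-fold higher (1.55 to 1.63). Ctgf, its relative, was 1.38-fold higher (1.34 to 1.42), short of 1.5. Birc5 also belongs to the G2 and M list and Igfbp3 to the tip cell list. Of 16 Hippo pathway genes, Frmd6 was higher at 2.21-fold and Vgll4 lower at 1.57-fold. Nf2 was at 17.2 against 23.3 CPM, a ratio of 0.739 (0.633 to 0.863), and did not reach the size required.

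Actin genes of the serum response factor were higher where they differed, 6 of 17 with none lower and a median of 0.39. Fhl2, a LIM-domain cofactor, was 3.31-fold higher (2.84 to 3.86), Tpm1, a tropomyosin, 2.47-fold (2.41 to 2.54), Filip1l 2.07-fold and Myh9, the non-muscle myosin heavy chain, 1.63-fold. Of 17 genes of TGF-beta and BMP signalling, 5 were higher and 4 lower, with a median of -0.46, and among the higher ones were the ligands Bmp2, Tgfb2 and Bmp4 and the receptor gene Tgfbr2. Bmp4 was 2.86-fold higher (2.60 to 3.14). The lower ones were the BMP target genes Id1, Id2 and Id3 and the co-receptor gene Eng. Id3 stood at 202 and 139 CPM against 564 and 466 CPM, 3.12-fold lower (2.99 to 3.26), and Eng was 2.28-fold lower (2.21 to 2.36). Of 24 matrix genes, 6 were higher and 5 lower, with a median of -0.10: Fn1, Tnc, Thbs1, Nid2, Lama4 and Cyr61 against Fbln2, Col15a1, Tinagl1, Bgn and Lama5. Col15a1, a basement membrane collagen, was 3.64-fold lower (3.38 to 3.92).

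In the families of the 4 markers some of the compared genes reached the size required and others did not. Here too the counts are to be read against 6.35% of all compared genes higher and 7.87% lower. Of 11 compared genes of protease-activated receptors and coagulation, 3 were higher and 2 lower. F2r, the thrombin receptor PAR1, stood at 179.5 and 166 CPM against 43.9 and 51.9 CPM, 3.47-fold higher (3.21 to 3.75). F2rl2, the receptor PAR3 that assists thrombin signalling, stood at 99.3 and 86.1 CPM against 16.1 and 10.4 CPM. The anticoagulant receptor genes Procr and Thbd were 1.58-fold and 1.51-fold lower. Of 25 tight junction genes in the files, 7 were abundant enough to compare: Cgnl1, a paralogue of cingulin, was 3.19-fold higher (2.88 to 3.55) and Jam2, an adhesion molecule of venules, 4.85-fold lower (4.47 to 5.28). Cldn5 stood at 235 against 299 CPM, a ratio of 0.789 (0.756 to 0.822), short of 1.5-fold. Of 3 compared genes of granins and secretory granules, Gal and Cpe, a prohormone carboxypeptidase, were higher, Cpe at 2.01-fold (1.81 to 2.24), but the median of that list, 1.01, became -0.18 when genes down to 5 CPM were compared. Of 11 genes of glutathione and phase 2 metabolism, Hmox1, Mgst1 and Gstt2 were higher and Gsto1 and Gstm2 lower. Hmox1, the gene of haem oxygenase 1, was 3.56-fold higher (3.31 to 3.84). Gstt2 lies in the same family as the marker Gstt1, and similar sequences could have shared reads.

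Growth factor, vasoactive and inflammatory lists each held genes on both sides. Of 13 genes of VEGF and angiopoietin signalling, the 4 that were higher encode secreted factors (Pgf, Esm1, Apln, Angpt2) and the 5 that were lower encode receptors (Aplnr, Flt1, Kdr, Nrp1, Tek). Flt1 stood at 241 and 283 CPM against 904 and 935 CPM, 3.44-fold lower (3.33 to 3.55), and Kdr, the main VEGF receptor, was 2.23-fold lower (2.13 to 2.34). Among 10 vasoactive genes, Adm and Edn1 were higher and Ednrb, Ramp3, Npr1, Calcrl and Ace lower. Calcrl, the adrenomedullin receptor, was 2.03-fold lower (1.88 to 2.20). Of 20 genes of NF-kB targets and adhesion, 4 chemokine genes were higher (Cxcl12, Ccl2, Cxcl1, Cxcl2) and 5 genes lower (Ackr1, Selp, Il6, Icam1, Tnfaip2). Icam1, a leukocyte adhesion molecule, was 4.48-fold lower (4.15 to 4.84). Of 28 interferon response genes, 3 were higher and 3 lower, with a median of -0.07. Rsad2, an antiviral protein, was 2.28-fold higher (2.14 to 2.44), and Cxcl10, a T cell chemokine, was 2.03-fold lower (1.95 to 2.11), at 102 and 278 CPM in the runs against 449 and 446 CPM. These genes depended on the number of markers required: with at least 3, Rsad2 was 1.11-fold, Ifit2 1.31-fold and Ifit3 1.02-fold higher, and Cxcl10 was 6.79-fold lower. Of 9 integrin genes, Itgav was higher at 2.07-fold (1.93 to 2.23) and Itga2 and Itga6 lower, Itga6 at 1.68-fold (1.59 to 1.77). Of 19 genes of the unfolded protein and heat shock responses, Trib3, a stress-induced pseudokinase, was 2.499-fold and the small heat shock gene Hspb1 2.30-fold higher, and Sdf2l1 1.83-fold lower.

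**Figure D4:**
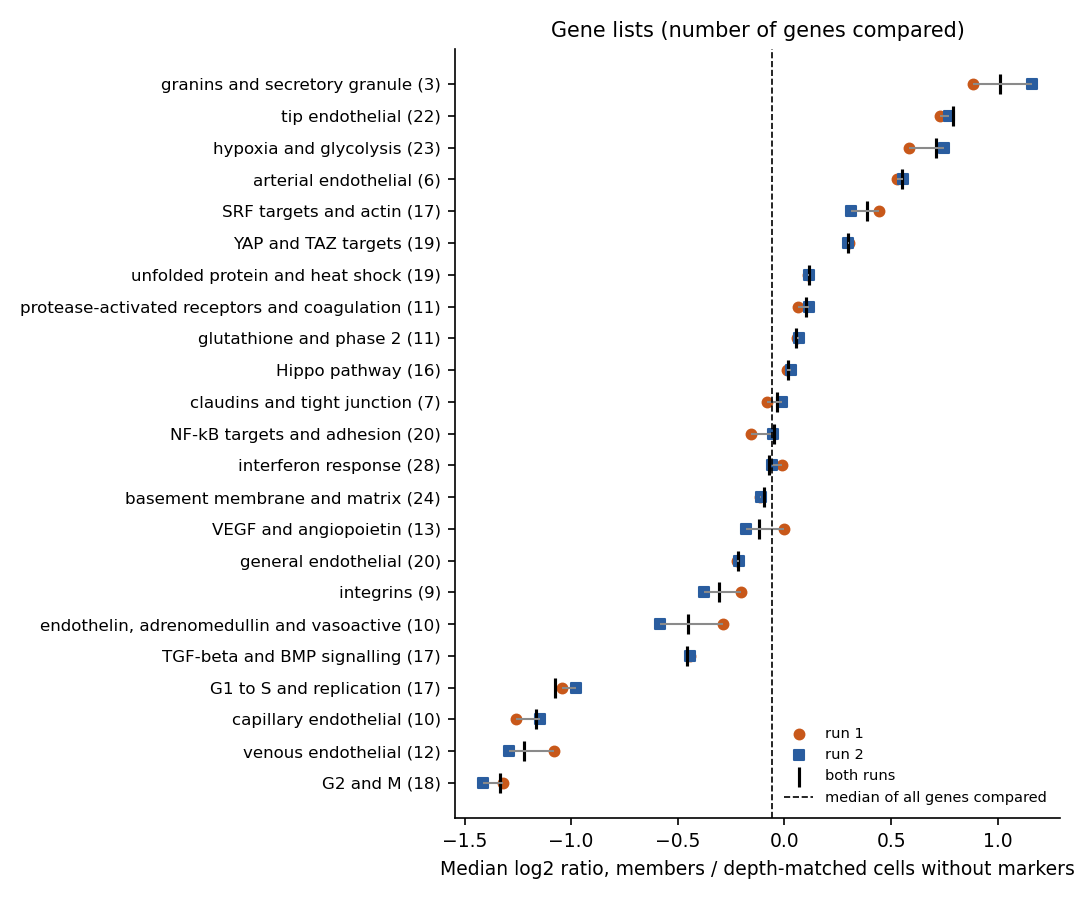
Median log2 ratio of the compared genes of each list, chosen cells over depth-matched cells without markers, in run 1, in run 2 and over both runs, with the number of genes in brackets. The medians run from -1.33 for the G2 and M list to 1.01 for the 3 granin and granule genes, beside -0.06 for all compared genes (dashed line).

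The chosen cells were unevenly spread over the kinds of cell in the library. Kept knockout cells were clustered without the 4 markers into 9 clusters, numbered from 0, and no cluster is given a cell type name. Cluster 3, led by Gal, Fn1 and Tgfb2, had 759 cells and held 370 of the chosen cells, 48.7% of the cluster (45.1 to 52.4) and 50.5% of all chosen cells. Cluster 8, led by Vegfa, Bnip3 and Egln3, had 297 cells and held 151, or 50.8% (45.0 to 56.7). Cluster 4, led by the interferon-induced genes Rsad2, Ifit2 and Ifit3, had 186 cells and held 74, or 39.8% (32.7 to 47.2). Clusters 0, 1 and 2 held 2.23%, 1.77% and 2.82% of chosen cells among 403, 113 and 284 cells. Cluster 0 was led by Ramp3, Stc1 and Ednrb and cluster 1 by Igfbp5 and Ackr1. Clusters 5, 6 and 7 held 19.5%, 10.2% and 14.9%. Fn1 and other leading genes of clusters 3 and 8 were also among the genes high in the chosen cells.

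No cell type that should lack the 4 markers could be set apart among these sorted cells, so cluster 0, of nearly the same depth as cluster 8, gives a level for comparison. Cldn4 was detected in 0.248% of the cells of cluster 0, at a median of 18175 UMIs, and in 35.4% of those of cluster 8, at a median of 18124 UMIs. F2rl1 was detected in 4.22% and 66.0% of these clusters, Chga in 8.68% and 46.5% and Gstt1 in 3.72% and 12.8%.

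With partners taken from the same run and the same cluster, 348 pairs were formed and the ratios of all 24 named genes were nearer to 1. Clusters 3 and 8 held only 154 and 57 cells without markers for 370 and 151 chosen cells, so many chosen cells had no partner. The within-cluster values thus rest on fewer cells and another mix of clusters than the 716 pairs. Of the 367 higher genes, 100 were still counted and 355 kept a ratio above 1, and of the 455 lower genes, 107 were still counted and 396 kept a ratio below 1. Efemp1 was 7.35-fold higher within clusters, Rarres1 6.80-fold, Ankrd1 4.06-fold, Pmaip1 3.61-fold and Fn1 2.87-fold. Slco2a1 was 6.16-fold lower, Aplnr 5.92-fold, Aqp1 4.40-fold and Ackr1 8.72-fold. Gal changed sides, to 1.34-fold lower, and Pgf was 1.39-fold higher. Unc5b, Cxcl2, Cxcl10, Thbd, Top2a, Nusap1 and Ube2c changed sides as well, and Ctgf, which had not been counted, went to a ratio of 0.893. The median of the interferon list went from -0.07 to 0.29. The median log2 ratio of the tip cell list was 0.06 within clusters, that of the hypoxia and glycolysis list 0.08 and that of the G2 and M list 0.28. The venous and capillary lists kept medians of -0.56 and -0.97. The clusters themselves rest on genes that differ between the cells.

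The chosen cells differed among themselves by cluster and by the markers they held. In cluster 8 the 151 chosen cells had 447 CPM of Ankrd1, 2566 CPM of Pgf and 401 CPM of Egln3. The 370 chosen cells of cluster 3 had 198, 968 and 103 CPM, and the 212 of the other 7 clusters 49.8, 680.2 and 56.8 CPM. Fn1 stood at 5495, 4190 and 1668 CPM in the same order, whereas Bmp2 stood at 281, 342 and 354 CPM. Chosen cells outside clusters 3 and 8 held more transcripts of the G2 and M list, 1952 CPM against 62.8 CPM in cluster 8 and 141 CPM in cluster 3, and more of the interferon list, 10099 CPM against 3263 and 4593 CPM. The 348 chosen cells with Cldn4 (median 22962 UMIs) had 311 CPM of Ankrd1 and 5063 CPM of Fn1, and the 385 without it (median 20363 UMIs) had 96.1 and 2371 CPM. Car4 stood at 2.63 CPM with Cldn4 and 43.1 CPM without it, and Aqp1 at 49.9 and 184 CPM. Of those with Cldn4, 28.4% lay in cluster 8, against 13.5% of those without it. The split by Chga went the other way for Ankrd1, at 158 CPM in the 604 chosen cells with Chga and 392 CPM in the 129 without it, while Fn1 stood at 3650 and 3879 CPM. By F2rl1, Ankrd1 stood at 208 CPM with it and 144 CPM without it, and by Gstt1 at 220.3 and 190.5 CPM. A cell lacking 1 marker had to hold at least 2 of the other 3, so these splits are not independent of each other.

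The same rule was applied to the control library, where 72 cells met it and all could be paired within their run. Of 5788 genes compared, 180 (3.11%) were higher and 236 (4.08%) lower by the same measure. Of the 12 higher genes, 8 reached a mean of 20 CPM over these control cells and their partners, and all 8 were counted as higher. Of the 12 lower genes, 7 reached that mean, and all 7 were counted as lower. The other 9 lay below that mean and could not be counted, among them Ackr1 with 1 against 4 UMIs. Fn1 was 3.86-fold higher (3.64 to 4.10), Efemp1 7.29-fold (4.82 to 11.4), Bmp2 2.39-fold (2.17 to 2.64) and F2rl2 5.24-fold (3.22 to 8.92). Ankrd1, whose mean fell just short of 20 CPM, stood at 20.6 against 19.4 CPM. Its ratio was 1.06 (0.698 to 1.61), which is also short of 1.5-fold. The runs of Ankrd1 lay on opposite sides, at 1.15 in run 1 and 0.855 in run 2. Aqp1 was 2.28-fold lower and Aplnr 7.76-fold lower. Of the 330 genes higher in the knockout cells that were also compared in the control, 82 (24.8%) were higher there too, which is 45.6% of the control's higher genes. For lower genes it was 132 of 402 (32.8%), or 55.9% of the control's, and 5 genes were on the opposite side. In these control cells markers of other cell types were frequent: 37.5% of them held at least 3 markers of another type, against 19.4% of their partners, and the part of this in the ratios was not tested.

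**Figure D5:**
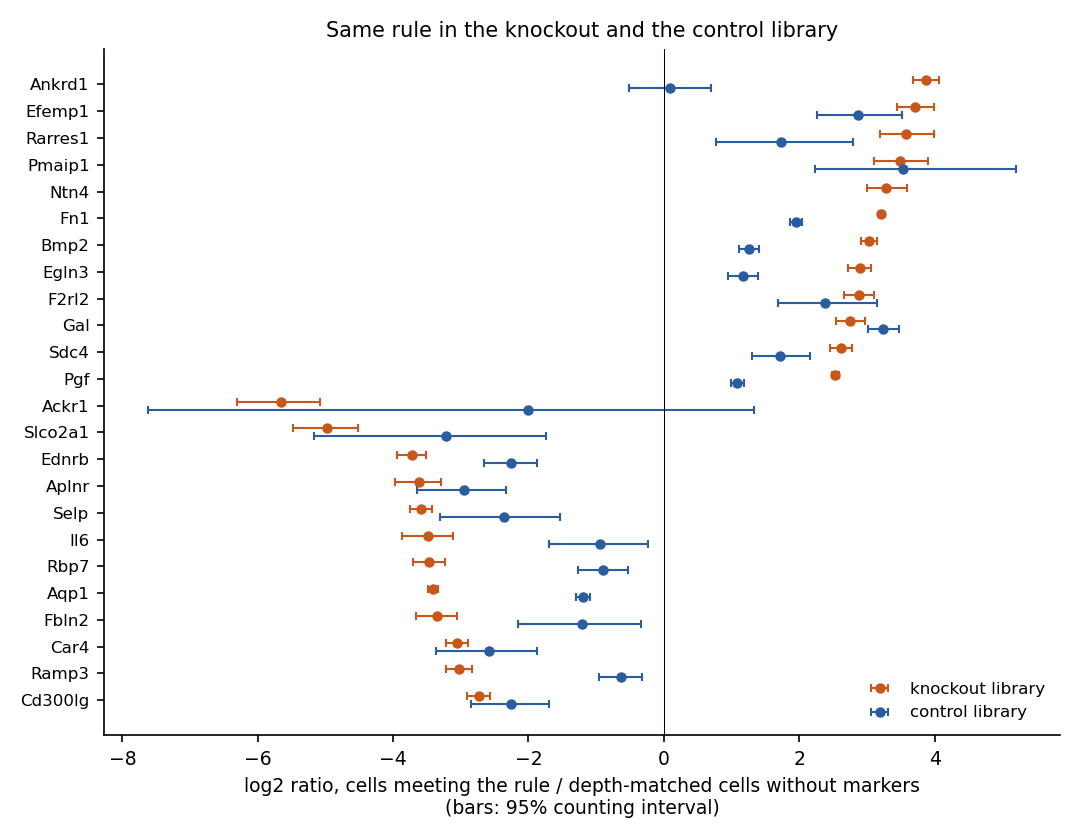
Log2 ratio of the 24 named genes, cells that met the rule over depth-matched cells without markers, in the knockout library (716 pairs) and in the control library (72 pairs), with 95% intervals for counting error. The control value of Ntn4 is not drawn because its partners held no UMI, the control interval of Ackr1 spans 0, and Ankrd1 lies near 0 in the control library.

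Cells without any of the 4 markers differed between the libraries as well. Of the 12 lower genes, 7 were at least 1.5-fold higher in the 1432 marker-free knockout cells than in the 956 marker-free control cells and none at least 1.5-fold lower. Ackr1 stood at 87.4 against 14.4 CPM, a ratio of 6.07 (5.38 to 6.89), and Selp at 265 against 73.0 CPM, a ratio of 3.63 (3.44 to 3.85). Of the 12 higher genes, 2 were at least 1.5-fold higher in the marker-free knockout cells (Ankrd1 at 1.81-fold and Ntn4 at 3.37-fold) and 5 lower (Rarres1, Bmp2, Egln3, Gal and Pgf). Bmp2 stood at 51.02 CPM in marker-free knockout cells, 199 CPM in marker-free control cells and 334 CPM in the chosen cells. Of the 12 higher genes, 11 were higher in the chosen cells than in marker-free control cells, with Gal the exception at 86.6 against 148 CPM, and all 12 lower genes were lower. These marker-free cells were not matched for depth, with median totals of 16314.5 and 18159 UMIs. They made up 50.8% of kept knockout and 68.1% of kept control cells, so the rule set aside unlike shares. Over all kept cells Pgf and Rarres1 were higher in the knockout, at 648 against 580 CPM and 18.7 against 9.32 CPM. Bmp2, Egln3 and Gal stayed lower there, Bmp2 at 165 against 300 CPM. The part of this selection in the differences was not tested. With 1 library of each, a difference between the libraries and one between the genotypes cannot be told apart.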

How the data were processed

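Endothelial cells sorted from mouse tumours were sequenced in 1 control library (2826 cells, 34649992 UMIs) and 1 Nf2 knockout library (3368 cells, 58907098 UMIs). The submitters' processing notes name Seurat 3.1.1, Cell Ranger 3.0.0 and mm10. The authors deposited natural log values of 1 plus 10000 times the UMI share of each gene in a cell, as tested on the values: all came out as whole UMIs within 0.01. Recovered UMIs took the place of the counts the design had assumed. The cells, markers and gene lists were chosen with earlier results of these data known.

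Kept cells had at least 2000 detected genes. Chosen cells were paired 1 to 1 with cells lacking all 4 markers of the same run by UMI total (difference at most 0.1 on the log2 scale), and summed UMIs were compared as CPM. Named genes are the 12 highest and 12 lowest ratios, at least 1.25-fold in each run, without the markers, ribosomal, mitochondrial, haemoglobin and unnamed genes, plus up to 4 genes per list with large ratios or high levels. Overlaps come from GENCODE vM21. Clusters used 2000 variable genes, 30 components, 15 neighbours and Leiden resolution 0.8 (scanpy 1.11.5). The values of 1 listed gene are not reported here. Doublets were scored after Scrublet and not removed. On simulated data, 100% of 200 genes changed 2-fold were recovered among 5813 compared, and 0 unchanged genes were called. The simulated counts were drawn around the mean levels of the comparison cells, with no spread between cells or clusters. The 2-fold change also lay above the 1.5-fold limit. The simulation checked the calculation only and says nothing of errors in real cells. Matched knockout cells held from 4564 to 92260 UMIs. Alternatives changed the marker number, gene and CPM minimums, scaling, runs, doublets, cells with other markers and the matching.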

Additional observations from a re-analysis of the deposited data

Results flagged for a closer look

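The following values draw attention because both runs of the knockout library lie on one side of 0 and both runs of the control library on the other. Measured against the medians of all compared genes, which were -0.078 and -0.050 in the knockout runs and -0.074 and -0.053 in the control runs, neither pattern holds in every run. The median log2 ratio of the interferon response list, cells meeting the rule over their partners, was -0.072 in the knockout library and 0.32 in the control library. The median of the unfolded protein and heat shock list was 0.11 in the knockout library and -0.085 in the control library. By run the interferon medians were -0.012 and -0.060 in the knockout library, and the unfolded protein medians -0.11 and -0.011 in the control library. The difference between the libraries was not tested for either list.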

How the results depend on the processing

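No paired analysis was possible because there is 1 library per group and the runs carry no stated pairing. The share of knockout cells chosen, 26.0%, was 11.2% with at least 3 markers required, 28.2% without cells with transcripts of 5 G2 and M genes and 23.1% without cluster 8. The control share, 5.13%, was 0.570% with at least 3 markers, 3.21% in run 1, 7.32% in run 2 and 3.94% without cells with markers of other types. Genes counted as higher and lower, 367 and 455, were 204 and 235 at a minimum of 50 CPM, 659 and 938 at 5 CPM and 123 and 121 with partners from the same cluster; centring the ratios on their median gave 418 and 388. The alternatives that leave out the G2 and M cells or cluster 8 were chosen after seeing the data. Of the 24 genes with the highest and lowest ratios, Gal alone changed sides under any of the 17 alternatives, to a log2 ratio of -0.43 within clusters. Of the other genes counted as higher or lower that are named here, within clusters Cxcl10 (0.32), Nusap1 (0.26), Thbd (0.077), Top2a (0.26) and Ube2c (0.41) went above 0 and Cxcl2 (-0.29) and Unc5b (-0.27) below 0. Without G2 and M cells, which removes such transcripts by construction, Nusap1 (1.20) and Ube2c (0.67) went above 0. Among the larger list medians, arterial (-0.36) and granin genes (-0.18) changed sides at 5 CPM and G2 and M (0.28) within clusters; other lists with medians within 0.12 of 0 changed sides too, 23 changes in 11 lists in all. Of 92 named genes counted as higher or lower, 41 were under 1.5-fold within clusters, 8 without G2 and M cells (among them Cxcl2, Cyr61, Ifit2, Ifit3, Mgst1 and Thbd) and 5 with at least 3 markers (Rsad2, Ifit2, Ifit3, Unc5b, Thbd). Under any other alternative at most 3 were. Ratios moved by over 1.5 times for 67 of the 92 within clusters, 18 with at least 3 markers, 9 in run 1 and at most 8 otherwise. Otherwise the cause was not tested.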

Other observations

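F2rl1, F2r and F2rl2, the genes of 3 protease-activated receptors, are neighbours on chromosome 13 of GRCm38, between 95511732 and 95702739. Within 100000 bases on either side the files hold 7 genes. Crhbp, which encodes the binding protein of corticotropin-releasing hormone, was at 12.5 CPM in the chosen cells and 2.29 CPM in their partners, a ratio of 5.48 (3.86 to 7.96), with 3.95 in run 1 and 6.59 in run 2. It was too scarce to be counted under the limit of 20 CPM. F2r and F2rl2 were 3.47-fold and 7.37-fold higher, and F2rl1 belongs to the rule. S100z had 16 UMIs against 1, Iqgap2 6 against 3 and Gm48730 none. This stretch was looked at after the values of the receptors had been seen.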
